A study of Mus musculus with 9 samples.

Results

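The 48 genes described here encode subunits of oxidative phosphorylation, the last stage of respiration: 13 are genes of mitochondrial DNA and 35 are nuclear genes. They were chosen by gene symbol, and all 48 were found among the 54432 gene identifiers of the deposited table. The RNAseq libraries came from RAW264.7, a tumour cell line of mouse macrophages, and fell into 3 groups of 3. Control cells were left untreated, and the other groups received VLDLsep or CHYLsep at 1 mM for 6 hours. VLDLsep and CHYLsep are sunflower oil droplets stabilized with sodium caseinate, of the size of very low density lipoproteins (VLDL-sized) and of the larger chylomicrons (CHYL-sized). All groups were unmodified cells of this 1 line in serum-containing medium, no group received the emulsifier alone, and according to the methods the samples of a condition from 1 experiment were pooled before sequencing.

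In oxidative phosphorylation, complexes I to IV of the inner mitochondrial membrane pass electrons from nutrients to oxygen, complexes I, III and IV pump protons as they do so, and complex V (ATP synthase) uses the proton gradient to make ATP. Complexes I, III, IV and V are mosaics: some of their subunits, all of them membrane proteins, are transcribed inside the mitochondrion from the small circular mitochondrial genome as long transcripts that are cut into single mRNAs, whereas the other subunits, core ones among them, and the whole of complex II are transcribed in the nucleus and imported as proteins. Macrophages are known to shift between respiration and glycolysis as they are activated. The comparison of both gene sets asks whether the transcripts of the mitochondrial and the nuclear genome moved alike when the cells took up lipid.

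The libraries held 22393893 to 22856792 estimated counts each. All 48 members passed the filter of more than 10 counts in at least 3 libraries, and the lowest count of any member in any library was 496 (Ndufa1). Levels are given below as TMM-scaled cpm, that is, counts scaled to a common library size after a correction for composition. A gene was called when the adjusted p of limma-voom was under 0.05. All 8 macrophage markers examined were measured, with control means of 928 cpm for Cd68 and 2431 cpm for Lyz2, and 9 of 10 markers of other cell types were under the filter. The exception, Pecam1, had a control mean of 0.383 cpm. Fewer cells and less RNA per cell cannot be told apart in bulk samples.

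A stretch of nuclear chromosome 1 carries near-identical copies of 7 of the 13 mitochondrial genes, side by side on the minus strand, and the mapping had to divide the reads between gene and copy. The pairs are shown because the level of each gene depends on that division. Coordinates are of GRCm38 and capitals mark the base that differs between gene and copy.

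mt-Nd3: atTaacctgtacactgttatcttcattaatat
Gm28438: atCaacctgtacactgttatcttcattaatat
mt-Co1: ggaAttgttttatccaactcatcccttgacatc
Gm29216: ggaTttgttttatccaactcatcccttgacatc
mt-Atp6: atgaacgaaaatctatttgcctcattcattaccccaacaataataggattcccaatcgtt
Gm10925: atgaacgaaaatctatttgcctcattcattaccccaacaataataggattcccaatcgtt

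The stretches of mt-Nd3 (chrM:9459-9490), mt-Co1 (chrM:6390-6422) and mt-Atp6 (chrM:7927-7986) all lie in the coding sequence, on the plus strand. Those of the copies lie at chr1:24613088-24613119 (Gm28438), chr1:24616156-24616188 (Gm29216) and chr1:24614592-24614651 (Gm10925). The 1 mismatch shown for mt-Nd3 was the only one over 345 aligned bases, and that of mt-Co1 the only one over 483. mt-Atp6 and Gm10925 were identical over 678 aligned bases, mt-Co2 and Gm28661 over 681, mt-Co3 and Gm28437 over 783, mt-Nd4 and Gm28439 over 876, and mt-Nd4l and Gm10222 over 294. The copy took 58.1% of the summed reads for mt-Nd3, 19.2% for mt-Atp6, 7.14% for mt-Co3, 5.64% for mt-Nd4, 4.82% for mt-Co2 and 3.92% for mt-Co1, while Gm10222 held at most 2.20 counts in a library. No copy with at least 250 aligned bases at 99% identity was found among the annotated transcripts for mt-Nd1, mt-Nd2, mt-Nd5, mt-Nd6 and mt-Cytb. mt-Atp8, at 204 bases, is shorter than this minimum, so that the search could not find a copy of it.

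In control cells, mitochondrial transcripts were far more abundant per length than nuclear ones. By cpm per kilobase of exon, the 13 mitochondrial genes took ranks 1 to 13 of the 48 members. mt-Co1 (9637 cpm per kb), mt-Co2 (9214) and mt-Atp6 (9014) led, mt-Nd3 (431) was the lowest of the set, and Atp5b, the catalytic beta subunit of ATP synthase, was the highest nuclear member at 239 cpm per kb. The other leading nuclear members of each complex were Cox4i1 of complex IV (198 cpm per kb), Uqcrb of complex III (112), Sdhd of complex II, a membrane anchor of succinate dehydrogenase (109.9), and Ndufa4 (96.0), listed here under complex I by its name though also known as a subunit of complex IV. The length used for these levels merges all annotated exons of a gene and can exceed that of a single transcript of a nuclear gene. For Ndufs3 it was 2178 bases, against 550 in an annotated transcript. Nuclear levels per length, their order and the gap between Atp5b (4237 merged bases) and mt-Nd3 may therefore depend on the length used. Another length was not tried. Together the mitochondrial members made up 5.70% ± 0.21 (SD, n = 3) of all counts in control cells, and the 35 nuclear members 0.532% ± 0.006. Of 6 mitochondrial genes, 3.92% to 58.1% of the summed reads stood under the copies, so that their levels depend on that division, and neighbouring mt-Atp8 and mt-Atp6 share 43 bases and mt-Nd4l and mt-Nd4 share 7.

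**Figure D1:**
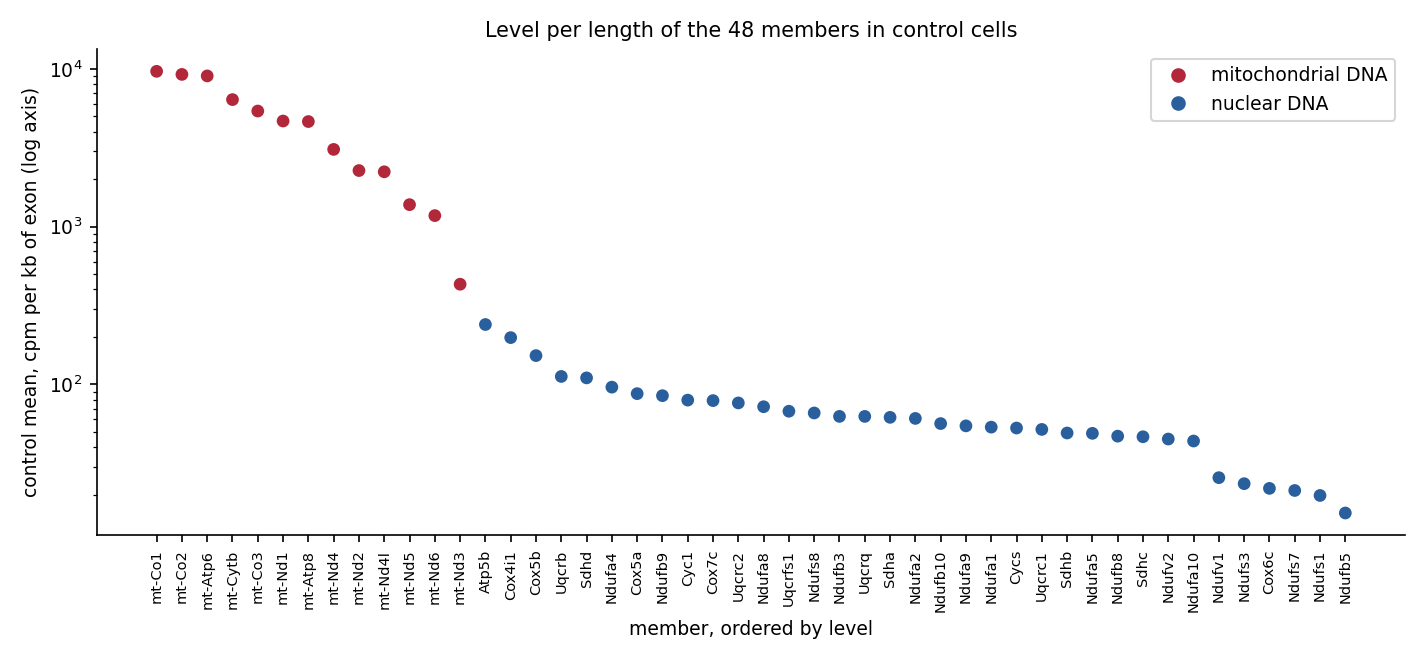
Mean level of each of the 48 members in the 3 control libraries, in TMM-scaled cpm per kilobase of exon on a log axis, ordered from high to low. The 13 genes of mitochondrial DNA lie between 431 and 9637, above the highest nuclear member, Atp5b, at 239. Length is that of all annotated exons merged, which can exceed a single transcript of a nuclear gene and so lower its level.

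With VLDL-sized particles, 9 of the 13 mitochondrial genes rose and none fell, while 3 of 35 nuclear members rose and 1 fell. Over all 12637 genes tested, 17.8% were called higher and 17.9% lower, 35.6% in either direction. Thus 69.2% of the mitochondrial set and 11.4% of the nuclear set were called. All 6 mitochondrial genes of complexes III, IV and V were among the 9. The median log2 fold change was 0.24 for the mitochondrial and 0.02 for the nuclear members, beside -0.00028 for all genes. The difference between both medians was 0.22, a description without a test.

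mt-Co1, mt-Co2 and mt-Co3 form the catalytic core of cytochrome c oxidase, the complex that reduces oxygen. mt-Co1 stood at 15637, 14949 and 14083 cpm in the control libraries and at 20672, 19481 and 17788 cpm with VLDL-sized particles. Each treated library was above each control library, and the log2 fold change of 0.37 ± 0.06 (SE; adjusted p = 0.000787 by limma-voom) was the largest of the 48 members. mt-Co2 stood at 6212, 6305 and 6391 cpm in control cells and at 8441, 7870 and 7447 cpm with VLDL-sized particles (log2 fold change 0.33 ± 0.06, adjusted p = 0.00134 by limma-voom). mt-Co3 went from 4117, 4504 and 4076 cpm to 5200, 5421 and 4670 cpm (0.27 ± 0.07, adjusted p = 0.0148). The groups did not overlap for any of the 3 genes. The call of mt-Co3 was lost without control replicate 1 or VLDL-sized replicate 1 or 2, at adjusted p of 0.0575, 0.0508 and 0.0648.

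mt-Atp6, the proton channel subunit of ATP synthase, and mt-Atp8, a small subunit of the same complex, lie next to each other on the genome. mt-Atp6 rose from 6303, 6437 and 5676 cpm to 7868, 7994 and 7619 cpm, a log2 fold change of 0.35 ± 0.05 (adjusted p = 0.00054 by limma-voom). mt-Atp8 rose from 1031, 948 and 855 cpm to 1162, 1125 and 1192 cpm (0.30 ± 0.07, adjusted p = 0.00905). mt-Cytb, the only mitochondrial gene of complex III, stood at 7389, 7075 and 7432 cpm in control cells and at 8455, 8150 and 8267 cpm after treatment. The groups did not overlap for these 3 genes, but the change of mt-Cytb was smaller (0.18 ± 0.05, adjusted p = 0.0171), and its call was lost without control replicate 2 (adjusted p = 0.0749) or VLDL-sized replicate 1 (0.0586).

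The 7 mitochondrial genes of complex I, which form the proton-pumping membrane arm, changed less evenly, with 3 called and 4 not. mt-Nd4 rose from 4552, 4146 and 4053 cpm to 5193, 5221 and 4777 cpm (log2 fold change 0.25 ± 0.06, adjusted p = 0.00506 by limma-voom). mt-Nd5 rose from 2507, 2469 and 2560 cpm to 3005, 3059 and 2855 cpm (0.24 ± 0.04, adjusted p = 0.00176). mt-Nd6, the only subunit gene on the other strand of the genome, rose from 636, 584 and 607 cpm to 727, 747 and 660.2 cpm (0.22 ± 0.06, adjusted p = 0.015). It was not called without control replicate 2 (adjusted p = 0.0648), VLDL-sized replicate 1 (0.0526) or VLDL-sized replicate 2 (0.0643). Whether the libraries kept strand is not given in the sources used here, so reads of mt-Nd6 and of the opposite strand cannot be told apart.

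mt-Nd1 and mt-Nd2, which lie first in the order of the genome, did not pass the test with VLDL-sized particles. mt-Nd1 was at 4389, 4261 and 4749 cpm in control and 4889, 4629 and 5051 cpm in treated cells (log2 fold change 0.12, 95% interval -0.04 to 0.28, adjusted p = 0.227 by limma-voom). mt-Nd2 was at 2406, 2232 and 2416 cpm in control and 2431, 2432 and 2393 cpm in treated cells (0.04, interval -0.07 to 0.15, adjusted p = 0.55). The groups overlapped for both. The interval of mt-Nd2 and that of mt-Co1 (0.24 to 0.51) did not meet, a description of 2 genes set side by side after their values were seen. mt-Nd4l was at 729, 656 and 598 cpm against 807, 798 and 656 cpm (0.19 ± 0.09, adjusted p = 0.127). It was called without VLDL-sized replicate 3, its lowest treated library (0.29, adjusted p = 0.0155). mt-Nd3 was at 124, 182 and 144 cpm against 93.6, 149 and 145 cpm (-0.23, interval -0.64 to 0.18, adjusted p = 0.376), and its groups overlapped.

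**Figure D2:**
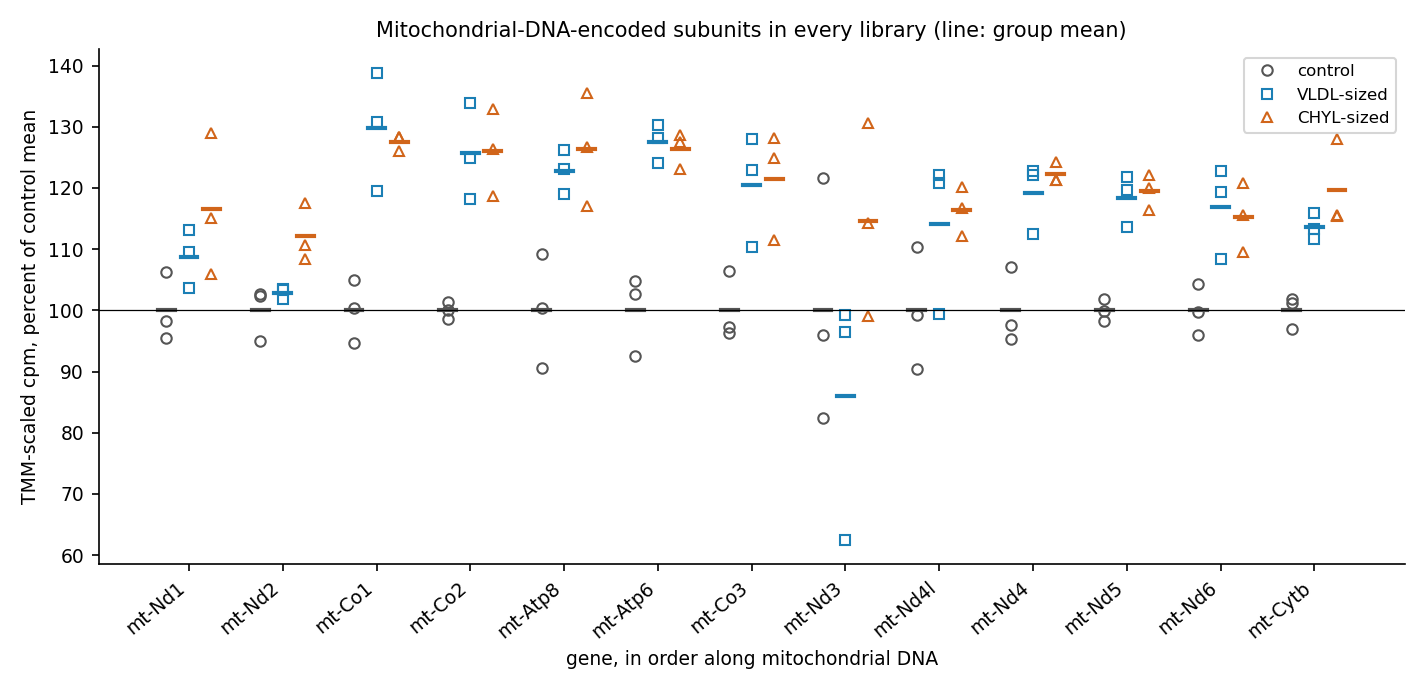
The 13 mitochondrial subunit genes in the order in which they lie on mitochondrial DNA, with 1 symbol per library (3 per group) in TMM-scaled cpm as percent of the control mean and a line at each group mean. From mt-Co1 to mt-Co3 both treated groups lie above the control libraries. mt-Nd2 and mt-Nd4l overlap with control in the VLDL-sized group, and mt-Nd1 and mt-Nd3 overlap in both.

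The same 9 genes and mt-Nd2 were called higher with CHYL-sized particles, 10 of 13 or 76.9%, against 12.7% of all genes called higher, 13.0% lower and 25.7% in either direction. The median log2 fold change of the mitochondrial members was 0.26 and that of the nuclear members 0.03, with 0.0013 for all genes, so that the medians differed by 0.23. The control libraries are the same in both comparisons, which are therefore not independent.

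mt-Co1 stood at 18774, 19106 and 19107 cpm with CHYL-sized particles (log2 fold change 0.35 ± 0.06, adjusted p = 0.00179 by limma-voom). mt-Co2 stood at 7479, 7967 and 8373 cpm (0.33 ± 0.06, adjusted p = 0.00195) and mt-Co3 at 4721, 5285 and 5426 cpm (0.28 ± 0.07, adjusted p = 0.016). mt-Atp6 stood at 7559, 7825 and 7898 cpm and mt-Atp8 at 1105, 1197 and 1281 cpm, both with a log2 fold change of 0.34. All these libraries lay above those of the control group. The call of mt-Co3 was lost without control replicate 1 (adjusted p = 0.0625) or without CHYL-sized replicate 2 (0.0588) or 3 (0.0564).

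mt-Cytb reached 8419, 8435 and 9344 cpm (log2 fold change 0.26 ± 0.05, adjusted p = 0.00421 by limma-voom). In complex I, mt-Nd4 reached 5281, 5153 and 5154 cpm (0.29 ± 0.06, adjusted p = 0.00332), mt-Nd5 3015, 2922 and 3069 cpm (0.26 ± 0.04, adjusted p = 0.00194) and mt-Nd6 705, 667 and 736 cpm (0.20 ± 0.06, adjusted p = 0.0302). mt-Nd2 reached 2548, 2602 and 2763 cpm, above all control libraries (0.17 ± 0.05, adjusted p = 0.031). These 5 genes did not overlap with control. The calls of mt-Nd2 and mt-Nd6 were the least firm: that of mt-Nd2 was lost without control replicate 1 (adjusted p = 0.0594) or 2 (0.134) or CHYL-sized replicate 2 (0.0644) or 3 (0.112), and that of mt-Nd6 without control replicate 2 (0.114) or 3 (0.0571) or CHYL-sized replicate 1 (0.0851) or 3 (0.1).

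The remaining 3 genes belong to complex I. mt-Nd1 stood at 4728, 5137 and 5758 cpm with CHYL-sized particles, with a log2 fold change of 0.22 (95% interval 0.06 to 0.38) and an adjusted p of 0.0502 by limma-voom. It was called without control replicate 3 (adjusted p = 0.0318) or CHYL-sized replicate 1 (0.022), and also by DESeq2 (0.026). mt-Nd4l stood at 741, 793 and 771 cpm, above all control libraries, but was not called (0.22 ± 0.09, adjusted p = 0.0943). mt-Nd3 stood at 171, 149 and 196 cpm and overlapped with control (0.21, interval -0.20 to 0.61, adjusted p = 0.46).

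Counted by overlap, 9 of 13 mitochondrial and 7 of 35 nuclear members had all VLDL-sized libraries above all control libraries, beside 23.7% of all genes tested. With CHYL-sized particles the counts were 11 of 13 and 7 of 35, beside 20.8% of all genes. The nuclear share was thus near that of all genes in both comparisons.

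The summed level of the mitochondrial members rose from 54806 cpm ± 1196 (SD, n = 3) in control cells to 66514 cpm ± 2756 with VLDL-sized and 67453 cpm ± 2322 with CHYL-sized particles. The control libraries lay at 56031, 54747 and 53640.2 cpm, the VLDL-sized libraries at 68945, 67077 and 63519.7 cpm and the CHYL-sized libraries at 65245, 67238 and 69875 cpm. Neither treated group overlapped with control. The 35 nuclear members summed to 5117 cpm ± 137 in control cells, 5265 cpm ± 269 with VLDL-sized and 5290.5 cpm ± 192 with CHYL-sized particles, and the groups overlapped. The mitochondrial sum was 10.7 ± 0.5 times the nuclear sum in control cells, 12.7 ± 1.1 times with VLDL-sized and 12.8 ± 0.1 times with CHYL-sized particles. Within the VLDL-sized group replicate 3 had the lowest ratio (11.4), next to the highest control library (11.2). The sums weigh abundant genes most. The mean log2 level of the mitochondrial less the nuclear members rose by 0.17 with VLDL-sized and 0.22 with CHYL-sized particles, without overlap. By median log2 level the rise was 0.12 and 0.22. The VLDL-sized group then overlapped with control (lowest treated library 5.2928, highest control library 5.2937), and the CHYL-sized group did not. As a share of all counts, with no TMM scaling, the mitochondrial members made up 6.49% ± 0.33 with VLDL-sized and 6.64% ± 0.14 with CHYL-sized particles.

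**Figure D3:**
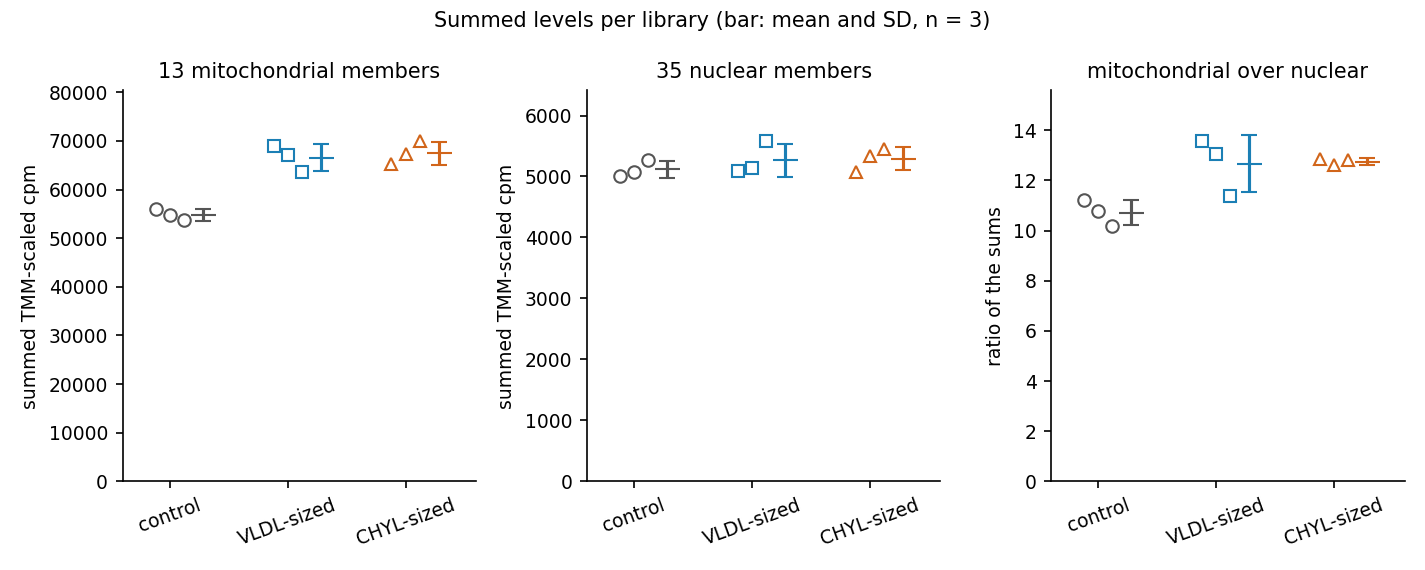
Summed TMM-scaled cpm of the 13 mitochondrial members, of the 35 nuclear members and the ratio of both sums, with 1 symbol per library and the mean and SD (n = 3) beside each group. All treated libraries lie above the control libraries in the mitochondrial sum (63520 cpm or more against 56031 cpm or less) and in the ratio, while the nuclear sums overlap.

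Cycs was the nuclear member that rose with both particles. It encodes cytochrome c, the soluble carrier that brings electrons from complex III to complex IV. It stood at 174, 179.9 and 186 cpm in the control libraries, at 208, 212 and 222 cpm with VLDL-sized and at 199, 207 and 218 cpm with CHYL-sized particles. Both treated groups lay above control, by a log2 fold change of 0.25 ± 0.05 (adjusted p = 0.00342 by limma-voom) and 0.21 ± 0.05 (adjusted p = 0.0127). The second call was lost without control replicate 1 (adjusted p = 0.0604) or CHYL-sized replicate 3 (0.0503). Gm10053, a near-identical copy of Cycs on chromosome 19 with 1 mismatch over 946 aligned bases, took 28.1% of the summed reads. With its reads added, Cycs rose by 0.26 ± 0.05 (adjusted p = 0.00376 by limma-voom) and 0.21 ± 0.05 (adjusted p = 0.0159).

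Complex I supplied 18 of the nuclear members, of which 1 rose and 1 fell with VLDL-sized particles and none was called with CHYL-sized particles. Ndufs1, the large iron-sulphur subunit of the arm that takes electrons from NADH, was at 155, 164 and 159.7 cpm in control cells and at 167, 179 and 182 cpm with VLDL-sized particles (log2 fold change 0.14 ± 0.05, adjusted p = 0.0405 by limma-voom). With CHYL-sized particles it was at 174, 175 and 175 cpm (0.13 ± 0.05, adjusted p = 0.0656). Ndufs7, the subunit that carries the last iron-sulphur cluster before ubiquinone, fell from 35.6, 34.9 and 39.0 cpm to 32.3, 29.7 and 32.4 cpm with VLDL-sized particles (-0.21 ± 0.07, adjusted p = 0.0366). With CHYL-sized particles it was at 32.4, 36.1 and 35.4 cpm, overlapping with control (-0.08, adjusted p = 0.467). The difference between both particles was -0.14 (95% interval -0.29 to 0.02, adjusted p = 0.801), and therefore no difference between them was shown for Ndufs7. Ndufb3, an accessory subunit, was at 47.7, 47.2 and 48.4 cpm in control cells, 53.8, 53.6 and 51.9 cpm with VLDL-sized and 49.4, 56.7 and 53.9 cpm with CHYL-sized particles, and was not called (adjusted p = 0.0661 and 0.0769). Without CHYL-sized replicate 1 it was called higher in that group (0.21, adjusted p = 0.0305). The other nuclear members of complex I had log2 fold changes between -0.09 and 0.16 with VLDL-sized and between -0.05 and 0.11 with CHYL-sized particles.

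The calls of Ndufs1 and Ndufs7 lay close to the threshold, and most fits with 1 library fewer lost them at folds of similar size. That of Ndufs1 was lost in 5 of the 6 fits that left out 1 VLDL-sized or control library, being kept without VLDL-sized replicate 1, at log2 fold changes of 0.12 to 0.16 and adjusted p up to 0.144 (without control replicate 1). That of Ndufs7 was lost in 4 of 6, at log2 fold changes of -0.23 to -0.17 and adjusted p up to 0.133 (without VLDL-sized replicate 2). Ndufa5, an accessory subunit, was at 42.9, 45.1 and 58.6 cpm with VLDL-sized particles against 50.5, 52.5 and 48.4 cpm in control cells. It was called lower when VLDL-sized replicate 3 was left out (-0.20, adjusted p = 0.0354).

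In complex III, 1 of 6 nuclear members rose with VLDL-sized particles and none was called with CHYL-sized particles. Uqcrq, a small subunit beside cytochrome b, was at 113, 119 and 112 cpm in control cells, 128, 125 and 131 cpm with VLDL-sized (log2 fold change 0.16 ± 0.05, adjusted p = 0.0359 by limma-voom) and 119, 125 and 132 cpm with CHYL-sized particles (0.13 ± 0.05, adjusted p = 0.0997). Its call with VLDL-sized particles was lost in 5 of the 6 fits that left out 1 library, all but that without control replicate 2, at adjusted p up to 0.114. Uqcrb, which binds ubiquinone with cytochrome b, was at 96.2, 99.1 and 99.7 cpm in control cells, 106, 106 and 104 cpm with VLDL-sized and 103, 109 and 109.8 cpm with CHYL-sized particles (adjusted p = 0.113 and 0.0713). Both treated groups lay above control for Uqcrb, though it was not called. Uqcrc2, a core subunit, was at 185, 187 and 212 cpm, 203, 207 and 231 cpm, and 203, 211 and 218 cpm in the same order (adjusted p = 0.151 and 0.238), and was called higher with VLDL-sized particles when control replicate 3 was left out (0.20, adjusted p = 0.0374). Cyc1 and Uqcrfs1, which hold redox centres of the complex, and Uqcrc1 had log2 fold changes between -0.04 and 0.00084 in both comparisons.

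None of the 4 members of complex II, the 5 of complex IV and the 1 of complex V was called in either comparison. In complex II, encoded wholly in the nucleus, the flavoprotein subunit gene Sdha was at 252, 254 and 258 cpm in control cells, 218, 232 and 259.6 cpm with VLDL-sized and 238, 234 and 246 cpm with CHYL-sized particles (log2 fold changes -0.11 and -0.09, adjusted p = 0.187 and 0.307 by limma-voom). Without VLDL-sized replicate 3, Sdha was called lower (-0.18, adjusted p = 0.0211). In complex IV, Cox4i1 was at 307 cpm ± 9.8 (SD, n = 3), 314 ± 15.5 and 311 ± 11.1 cpm in the 3 groups. Cox6c, a small subunit of the same complex, was at 72.7, 87.0 and 74.7 cpm in control cells, 80.4, 86.7 and 91.4 cpm with VLDL-sized and 89.2, 91.9 and 81.4 cpm with CHYL-sized particles. It was called higher when control replicate 2, its highest control library, was left out, at an adjusted p of 0.0494 for VLDL-sized and 0.0469 for CHYL-sized particles. Atp5b was at 982, 977 and 1084 cpm in control cells, 1025, 1010 and 1143 cpm with VLDL-sized and 1028, 1056 and 1112 cpm with CHYL-sized particles (log2 fold change 0.06, interval -0.08 to 0.20, and 0.07, interval -0.07 to 0.21). Within complexes IV and V the mitochondrial members were thus called with both particles and the nuclear members were not. The difference between both sets was not tested. Of the nuclear subunits outside the members, Cox7b of complex IV was called higher with VLDL-sized particles and Atp5md of complex V with both.

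**Figure D4:**
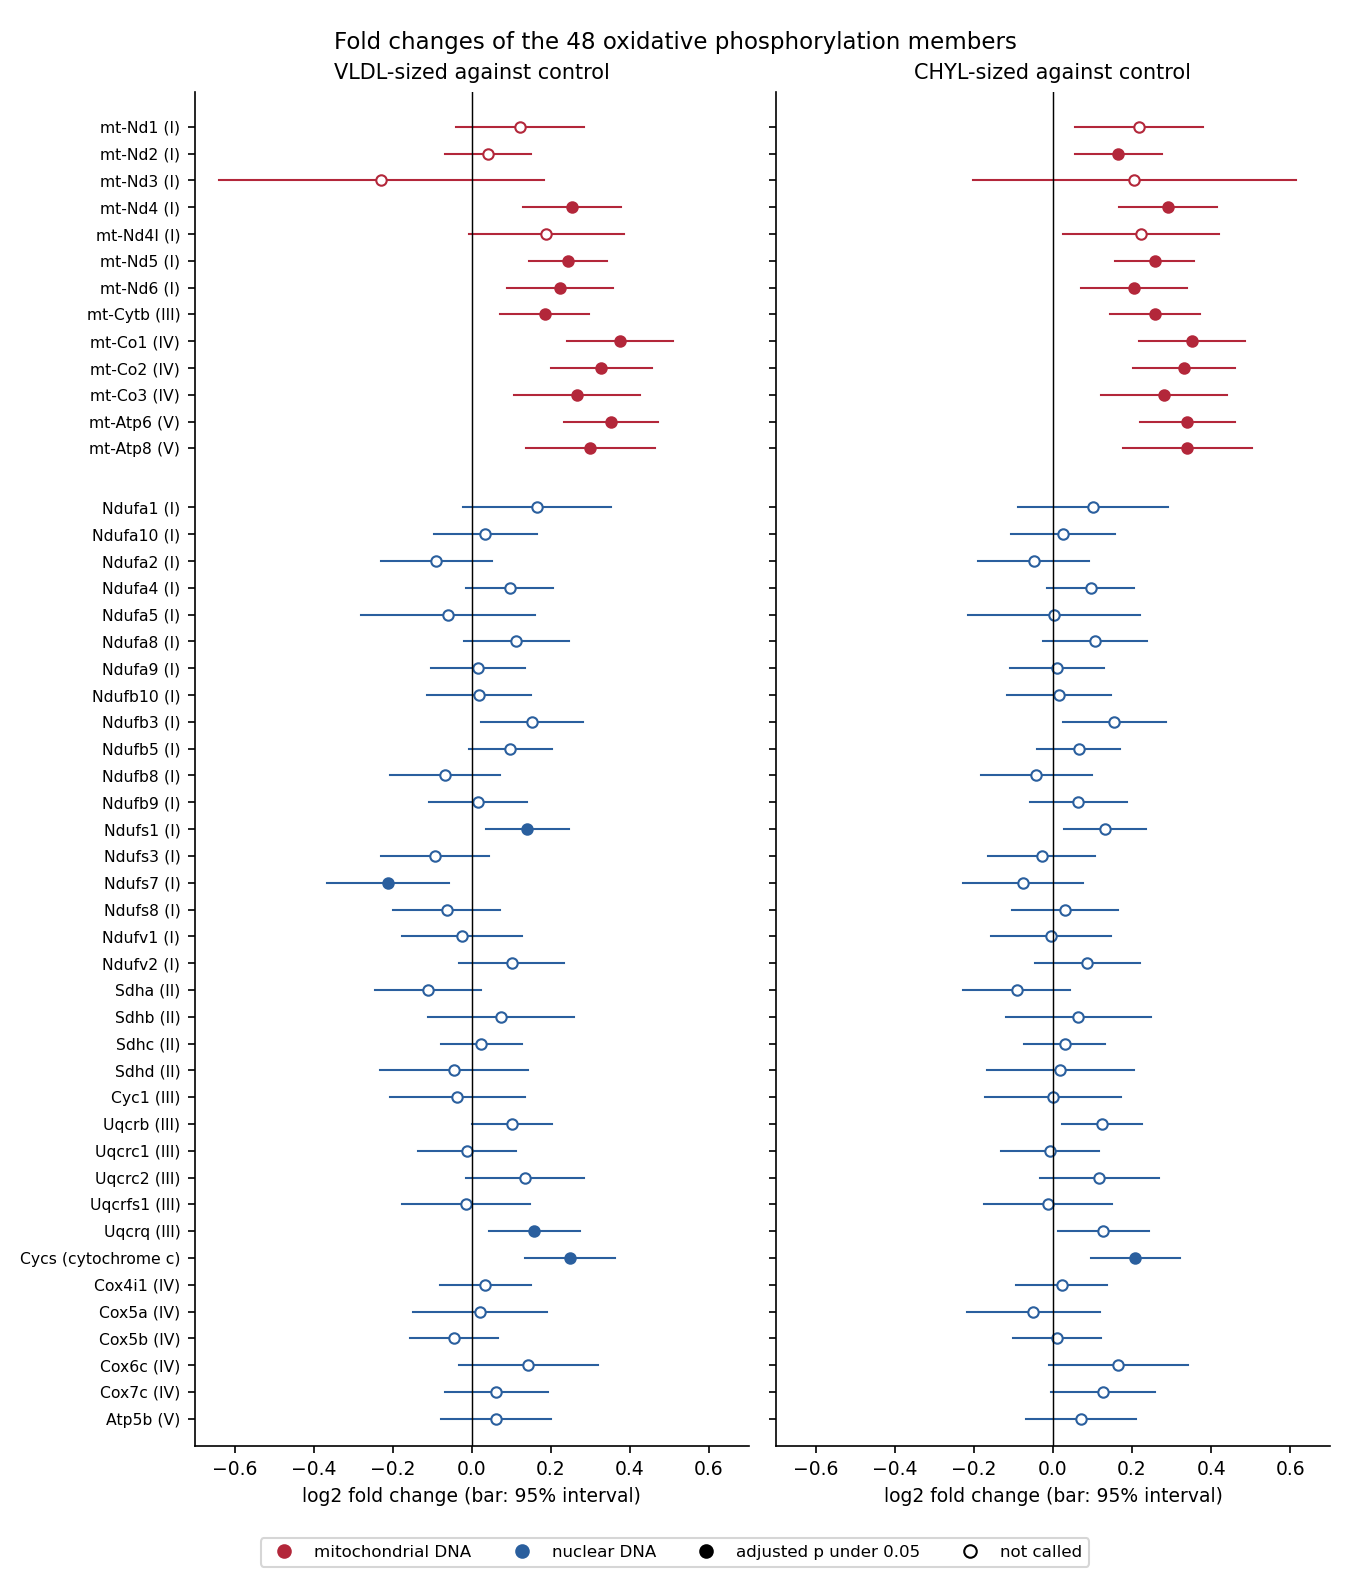
Log2 fold change with 95% interval of each member for VLDL-sized (left) and CHYL-sized particles (right) against control, from limma-voom, with mitochondrial genes in red and nuclear genes in blue, the complex in brackets and filled symbols for an adjusted p under 0.05. In both panels 12 or more of the 13 mitochondrial genes lie to the right of 0, while the nuclear genes lie on both sides with medians of 0.02 and 0.03.

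The choice of scaling moved both sets together. With library size as the only scaling, the median of all genes was -0.09 in the VLDL-sized and -0.08 in the CHYL-sized comparison. The nuclear median turned from 0.02 to -0.07 and from 0.03 to -0.05. The difference between the mitochondrial and nuclear medians (0.22 and 0.23) could not change, since a scaling shifts all genes of a comparison alike. With that scaling, 5 mitochondrial genes were called higher with VLDL-sized particles and 7 with CHYL-sized particles, and none was called lower. Over all 12637 genes, 1507 were then called higher and 3312 lower with VLDL-sized particles, and 1068 and 2514 with CHYL-sized particles. Sdha was called lower with both (-0.20, adjusted p = 0.0146, and -0.17, adjusted p = 0.0406 by limma-voom). Ndufs3 (-0.19, adjusted p = 0.0241) and Ndufs8 (-0.16, adjusted p = 0.0465), both of complex I, joined Ndufs7 as lower with VLDL-sized particles, and Ndufs1 and Uqcrq were no longer called. Cycs then kept its call with VLDL-sized but not with CHYL-sized particles (0.13, adjusted p = 0.0509).

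Deviations of VLDL-sized and control libraries from their group means correlated at 0.14, 0.13 and 0.29 for replicates 1, 2 and 3. VLDL-sized replicate 2 and control replicate 1 came close to the second value, at 0.12. For CHYL-sized and control libraries of the same number the values were 0.12, 0.068 and 0.34. With the replicate number as a block, 11 mitochondrial genes and 5 nuclear members were called higher with VLDL-sized particles and 1 nuclear member lower. That fit called 3046 of all 12637 genes higher and 3012 lower. The block added mt-Nd1 (adjusted p = 0.0325 by limma-voom), mt-Nd4l (0.0224), Ndufb3 (0.0317) and Uqcrc2 (0.0118). Replicate 3 of each group had the highest level of the mitochondrial ribosomal RNAs, 1132 cpm in control, 1078 in VLDL-sized and 1257 in CHYL-sized cells, beside 788 to 914 cpm in the other libraries. The part of this in the results was not tested. Without replicate 3 of every group the medians of both sets differed by 0.25 for VLDL-sized and 0.19 for CHYL-sized particles. Then 11 and 12 mitochondrial genes were called higher, beside 2728 and 2150 of all 12386 genes tested.

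Adding the reads of the nuclear copies to their genes left the count at 9 mitochondrial genes called for VLDL-sized particles. It gave 11 for CHYL-sized particles, where mt-Nd1 came under the threshold (adjusted p = 0.0491 by limma-voom). Over all 12630 genes then tested, 4506 and 3252 were called. The sum of mt-Co3 and Gm28437 was 4517 cpm ± 148 (SD, n = 3) in control, 5507 ± 247 in VLDL-sized and 5563 ± 84.5 in CHYL-sized cells, while Gm28437 alone ranged from 41.7 to 870.2 cpm between libraries. With the copy added, mt-Co3 rose by 0.29 ± 0.05 with VLDL-sized particles (adjusted p = 0.000929) and by 0.30 ± 0.05 with CHYL-sized particles (adjusted p = 0.00107). The sum of mt-Nd3 and Gm28438 was 366 cpm ± 19.1, 332 ± 61.0 and 379 ± 44.3 in the 3 groups, with log2 fold changes of -0.15 (adjusted p = 0.348) and 0.05 (adjusted p = 0.823). mt-Nd3 was therefore not called with its copy either.

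**Figure D5:**
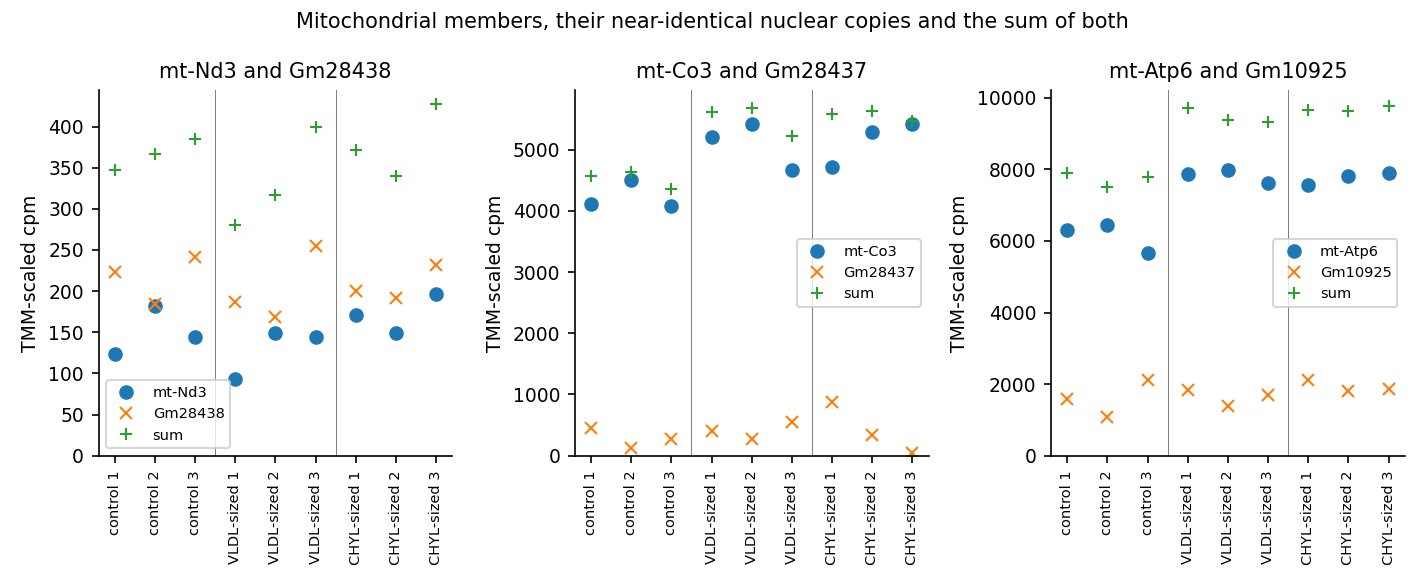
TMM-scaled cpm of mt-Nd3, mt-Co3 and mt-Atp6 (circles), of their near-identical nuclear copies (crosses) and of the sum (plus signs) in each of the 9 libraries. For mt-Co3 and mt-Atp6 the sums of all treated libraries lie above those of all control libraries, while for mt-Nd3 the sums overlap.

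VLDL-sized and CHYL-sized particles were not told apart by these genes. No member was called between both treated groups, as was the case for 0.0% of all genes tested by limma-voom. At an unadjusted p under 0.05 there were 813 genes of 12637, and DESeq2 called 24 of the 6512 genes it gave an adjusted p. The replicate block called 147 genes, and the fit without replicate 3 of every group called 257. mt-Nd2 and mt-Nd3 were among the 813 genes (unadjusted p = 0.0296 and 0.0399 by limma-voom). No member was among the genes called by DESeq2, the replicate block or the fit without replicate 3. The largest difference was that of mt-Nd3 (log2 fold change -0.44 for VLDL-sized against CHYL-sized, 95% interval -0.85 to -0.02, adjusted p = 0.766). mt-Nd2 was lower in each VLDL-sized than in each CHYL-sized library (-0.12, interval -0.23 to -0.01, adjusted p = 0.73). For mt-Co1 the difference was 0.02 (interval -0.11 to 0.16) and for mt-Atp6 0.01 (interval -0.11 to 0.13).

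Genes that serve the expression and copying of the mitochondrial genome were examined as a list of 35, of which 34 were tested. With VLDL-sized particles 6 rose and 1 fell, with a list median of 0.09, and with CHYL-sized particles 4 rose and 1 fell, with a list median of 0.06. The share called in either direction was 20.6% and 14.7%, below the 35.6% and 25.7% of all genes. Trmt10c, a subunit of the nuclease that cuts tRNAs out of the long mitochondrial transcripts, rose from 27.9 to 28.1 cpm in the control libraries to 42.0, 42.1 and 46.6 cpm with VLDL-sized and to 37.3, 35.1 and 42.0 cpm with CHYL-sized particles. Its log2 fold changes were 0.64 ± 0.08 (adjusted p = 0.000102 by limma-voom) and 0.44 ± 0.08 (adjusted p = 0.00186). Fastkd2, an RNA-binding protein of mitochondrial RNA granules, rose by 0.34 ± 0.06 and 0.24 ± 0.06, Slirp, which stabilizes mitochondrial mRNAs, by 0.30 ± 0.08 and 0.31 ± 0.08, and Rexo2, a nuclease for short RNAs, by 0.28 ± 0.06 and 0.25 ± 0.06. Polg, the polymerase that copies mitochondrial DNA, fell by 0.21 in both comparisons (adjusted p = 0.0188 and 0.0255).

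Among 10 nuclear regulators of mitochondrial biogenesis, 9 were tested and none was called higher, beside 17.8% (VLDL-sized) and 12.7% (CHYL-sized) of all genes. In each comparison 11.1% of the list were called, against 35.6% and 25.7% of all genes. The list medians were -0.15 and -0.10. Log2 fold changes were negative for all 9 with VLDL-sized particles, and for 6 with CHYL-sized particles, where 3 were positive. Gabpb2, a subunit of an ETS factor, was called lower with VLDL-sized particles (log2 fold change -0.35 ± 0.11, adjusted p = 0.0328 by limma-voom) and Pprc1, a coactivator, with CHYL-sized particles (-0.18 ± 0.06, adjusted p = 0.0349). The other 45 nuclear subunit genes of complexes I to V gave similar counts to the nuclear members: 2 rose with VLDL-sized particles (Cox7b and Atp5md) and 3 with CHYL-sized particles (Ndufs5, Ndufc2 and Atp5md), none fell, and their medians were 0.02 and 0.05. These are 4.44% and 6.67% of that list, against 35.6% and 25.7% of all genes.

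Of 44 assembly factors tested, 5 rose and 1 fell with VLDL-sized particles (list median -0.01), and 4 rose with CHYL-sized particles (list median 0.03). Thus 13.6% and 9.09% of the list were called, against 35.6% and 25.7% of all genes. With VLDL-sized particles these included Ttc19 (log2 fold change 0.38 ± 0.13), Uqcc1 (0.28 ± 0.08) and Coa5 (0.24 ± 0.05), which serve complexes III and IV, and Tmem70 (0.24 ± 0.05), which serves ATP synthase. With CHYL-sized particles they were Cox16 (0.26 ± 0.08), Cox14 (0.24 ± 0.06), Tmem70 (0.22 ± 0.05) and Coa5 (0.19 ± 0.05).

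Of 9 inhibitors, alternative subunits and related proteins that were tested, 3 rose with both particles and none fell (list medians 0.14 and 0.14), a share of 33.3% in each comparison against 35.6% and 25.7% of all genes. Chchd4, the import receptor that oxidizes cysteines of incoming proteins, rose by 0.48 ± 0.07 and 0.49 ± 0.07 on the log2 scale. Atpif1, the inhibitor of ATP synthase, rose by 0.29 ± 0.08 and 0.30 ± 0.08, and Chchd2, which binds cytochrome c oxidase, by 0.28 ± 0.05 with both. Ucp2, the uncoupling protein of macrophages, was not called (584 cpm in control, 575 with VLDL-sized and 558 with CHYL-sized particles).

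Of 13 enzymes of the citric acid cycle, which feeds electrons to complexes I and II, 2 rose and 1 fell with VLDL-sized particles, and with CHYL-sized particles 1 fell and none was called higher (list medians 0.06 and 0.03), or 23.1% and 7.69% of the list against 35.6% and 25.7% of all genes. Idh2, the NADP-dependent isocitrate dehydrogenase, fell by 0.23 and 0.17 on the log2 scale. Dld (0.22 ± 0.06) and Sucla2 (0.20 ± 0.06) rose with VLDL-sized particles. The 2 mitochondrial ribosomal RNAs were not called: mt-Rnr1 had log2 fold changes of 0.30 and 0.32 (adjusted p = 0.22 and 0.211) and mt-Rnr2 of -0.05 and 0.09 (adjusted p = 0.83 and 0.732). No mitochondrial tRNA gene held more than 1 count in a library.

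Among the 8 macrophage markers, 1 rose (Cd68) and 4 fell (Fcgr1, Spi1, Itgam and Lyz2) with VLDL-sized particles, and Fcgr1 fell with CHYL-sized particles. The share called was 62.5% and 12.5%, against 35.6% and 25.7% of all genes. Fcgr1, a receptor for antibodies, fell by 0.83 and 0.68 on the log2 scale. The part of these changes in the results for the mitochondrial genes was not tested.

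The promoter windows of the nuclear members, given for 25 of the 35 by RefSeq on GRCm38.p6, were searched on both strands for the core motifs of 3 factors linked to respiratory genes. The windows span the 250 bases before and 50 after the start. The NRF1 core GCGCATGCG was found in a window of 3 of the 25 members (12%) and of 1.95% of all 27025 genes with a window. The GABP core CCGGAAGTG was found in 1 (4%, against 2.25%) and the YY1 core AAGATGGCG in 2 (8%, against 1.64%). The 2 windows with the NRF1 core before the start are shown, since Cycs was the nuclear member called with both particles, with the match in capitals.

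Cycs: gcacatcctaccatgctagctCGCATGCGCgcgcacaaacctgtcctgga
Ndufa8: gcgcttgcgcgtcgctggagaCGCATGCGC

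The stretch of Cycs lies at chr6:50566602-50566651 and that of Ndufa8 at chr2:36049339-36049368, both on the minus strand. Ndufa8, an accessory subunit of complex I, had log2 fold changes of 0.11 with both particles and was not called (adjusted p = 0.171 and 0.224 by limma-voom). The third window with the motif was that of Uqcrc1, with log2 fold changes of -0.01 in both comparisons. A match of letters is a description and does not show that the factor binds.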

How the data were processed

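RAW264.7 libraries (3 control, 3 VLDL-sized, 3 CHYL-sized) were analysed. The authors mapped reads with Salmon 0.14.1 to GENCODE M22 transcripts of GRCm38.p6 and used tximport to obtain the deposited values, an estimated count for each gene. According to the methods these were scaled for length and depth, but 67.3% of the values above 10 were whole within 0.001, as unscaled counts would be. Depth was 22393893 to 22856792 counts per library, so that 10 counts equal about 0.442 cpm.

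The filter kept 12637 of 54432 genes. TMM factors (edgeR 4.0.16) and voom weights entered 1 limma 3.58.1 model of the 9 libraries in R 4.3.3, as in the study's methods, and p-values were adjusted by Benjamini-Hochberg over the genes kept. For edgeR's quasi-likelihood test and DESeq2 1.42.0, both alternatives, counts were rounded. Levels per length used merged exons of GENCODE M21 (GRCm38), which also gave positions. Copies were found by aligning the members' transcripts to all transcripts (at least 99% identity over 250 bases). The steps were tested on simulated data. Replicates are described as biological triplicates, and p-values measure the spread between libraries.

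Members and lists were chosen with earlier results of these data known, the lists from general knowledge. 1 gene is left out of the lists and not reported here. Named were the mitochondrial genes, nuclear members called in either comparison, with a call that depended on an alternative or with the highest level in their complex, and up to 4 called genes of each other list with the largest change. Values in every library are given for the mitochondrial genes and for nuclear members with small adjusted p. Ndufa8, Uqcrc1, Cyc1, Uqcrfs1, Ucp2 and Polg fall outside this rule and were named after their values were seen.

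Replicate numbers come from the labels, which do not say that a number marks a shared experiment. Deviations of same-numbered libraries from their group means correlated across genes at 0.14, 0.13 and 0.29 for VLDL-sized and control, at 0.12, 0.068 and 0.34 for CHYL-sized and control, and at 0.029, 0.12 and 0.36 between both particles. Alternatives were library size only, upper quartile, scaling without mitochondrial genes, edgeR, DESeq2, limma-trend (prior count 2), no filter, a filter of more than 50 counts, the 2 groups alone, a replicate block and each library left out. Leaving out replicate 3 of every group and adding the reads of the nuclear copies were chosen after the data had been seen.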

Additional observations from a re-analysis of the deposited data

How the results depend on the processing

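The difference between the mitochondrial and nuclear median log2 fold change stayed positive in every fit. The alternative scalings shift all genes alike and so could not move it. When 1 library was left out, the difference lay between 0.18 and 0.28 for VLDL-sized and between 0.20 and 0.25 for CHYL-sized particles. With mt-Nd6, mt-Nd4l and mt-Atp8 left out it was 0.22 and 0.24, and with all nuclear subunits it was 0.22 and 0.22. Upper quartile, edgeR, DESeq2, limma-trend, the stricter filter, the 2 groups alone and scaling without mitochondrial genes changed the number of called members by at most 1.

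With library size only, 5 mitochondrial genes were called with VLDL-sized particles in place of 9, as all fold changes shift down with that scaling. That fit called 4819 of 12637 genes. With no filter 1 nuclear member was called in place of 4, with 25588 genes tested, of which 3972 were called. When 1 library was left out, 8 to 14 members were called with VLDL-sized particles (lowest, 8, without VLDL-sized replicate 1 or 2). Of these, 6 to 10 were mitochondrial and 1 to 4 nuclear. The same fits called 3482 to 4301 of the 12544 to 12583 genes they tested. With CHYL-sized particles 7 to 12 members were called (7 without CHYL-sized replicate 3), of which 7 to 10 were mitochondrial and 0 to 2 nuclear. Those fits called 2320 to 3101 of the 12544 to 12588 genes they tested. No member was called between both particles in any fit. Without replicate 3 of every group, 2 nuclear members were called with CHYL-sized particles in place of 1.

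With the replicate block, 18 members were called with CHYL-sized particles in place of 11, 12 mitochondrial and 6 nuclear (Uqcrb, Uqcrq, Uqcrc2, Ndufs1, Ndufb3 and Cycs). Over all 12637 genes, 4949 were called with the block in place of 3249. The main fit took the numbers as a pairing in neither comparison. CHYL-sized and control libraries correlated at 0.34 for replicate 3 but at 0.068 for replicate 2, and CHYL-sized replicate 2 correlated best with control replicate 1 (0.16). VLDL-sized replicate 2 correlated at 0.13 with control replicate 2 and at 0.12 with control replicate 1. With VLDL-sized particles the block called 17 members in place of 13, and 6058 of all genes in place of 4500. No member lost its call under the block. The precision is limited by 3 libraries per group, so that small changes of members that were not called may have been missed.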
